A study of Mus musculus with 6 samples.

Results

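Erythroid cells of the spleen of a phenylhydrazine-treated mouse were compared by their distance to the nearest C1q-positive macrophage, in a 5 µm section imaged with a panel of 477 genes on the Xenium platform, which decodes RNA molecules in place and assigns them to segmented cells. Macrophages were cells in which C1qa, C1qb and C1qc summed to 10 counts or more. A cell with at least 8 counts of Slc4a1 and Hemgn together and without a C1q count was taken as an erythroid cell. Near cells had their center within 15 µm of a macrophage and far cells lay more than 40 µm from every macrophage. The members were chosen by these measured counts and by position, which gave 5145 cells, 3298 near and 1847 far, of 94582 cells in the section and 521938 cells in the 6 sections of the series.

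The section came from a wild-type mouse given 40 mg/kg of phenylhydrazine (PHZ) by intraperitoneal injection 2 times per day for 2 days, and the labels state no age for it. The second spleen section, from an untreated wild-type adult, was imaged on the same slide in the same run. The other sections were E13.5 and E14.5 fetal liver and bone marrow at postnatal day 8 and at 89 weeks, all wild type and not used here. Each condition had 1 section, so no difference was tested, no p-value is given, and cells were not treated as replicates of a condition. All intervals are exact 95% intervals. Those of CPM and of count ratios cover counting error only. Those of medians and of shares of cells take the cells of this section as independent draws, and none covers differences between mice.

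Phenylhydrazine destroys circulating red cells, and the mouse spleen responds by making new ones. Erythroblasts mature around a central macrophage in structures called erythroblastic islands, where the macrophage supports them and takes up the nuclei they expel. As they mature, erythroblasts leave the cell cycle, accumulate heme and hemoglobin, and lose receptors such as the erythropoietin receptor. Slc4a1 encodes band 3, the anion exchanger of the red cell membrane, Hemgn encodes the erythroid nuclear factor hemogen, and C1qa, C1qb and C1qc encode the chains of complement C1q, made by tissue macrophages.

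The labels given by the rule were checked on genes it did not use. Klf1, an erythroid transcription factor, had 262.5 counts per 100 near cells and 224.1 per 100 far cells, against 1.88 per 100 T cells of the same section. Gata1, another such factor, had 200.2, 165.4 and 2.65 counts per 100 cells in the same order. These T cells were selected to hold no Slc4a1 or Hemgn count, which bears on their low values. Macrophages had 355.2 counts of Cd68 and 180.9 of Mrc1 per 100 cells, whereas near cells had 30.4 and 11.01 and far cells 25.2 and 6.50. Macrophages were selected to hold at least 10 C1q counts and erythroid cells to hold none, which bears on these values. Erythroid transcripts were also seen in the macrophage outlines, with 96.2 counts of Klf1 per 100 macrophages, and 1980 of the 9045 macrophages, or 21.9%, themselves reached 8 counts of Slc4a1 and Hemgn.

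The rule kept a minority of the cells with erythroid markers. Of 36300 cells with at least 8 counts of Slc4a1 and Hemgn, 1980 were macrophages by the rule, 20691 had 1 to 9 C1q counts and were left out, and 13629 (37.5%) had none. Of these 13629 cells, 3298 (24.2%) were near, 8484 lay between the limits and 1847 (13.6%) were far. The share that passed the C1q limit was itself tied to distance. Among marker cells that were not macrophages it was 18.8% (17.8 to 19.8) within 10 µm of a macrophage, 31.8% at 10 to 15 µm, 42.1% at 15 to 20 µm and 59.0% (55.3 to 62.7) beyond 60 µm. Near cells were thus a smaller and more strongly selected share of the erythroid cells around them than far cells were.

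**Figure D1:**
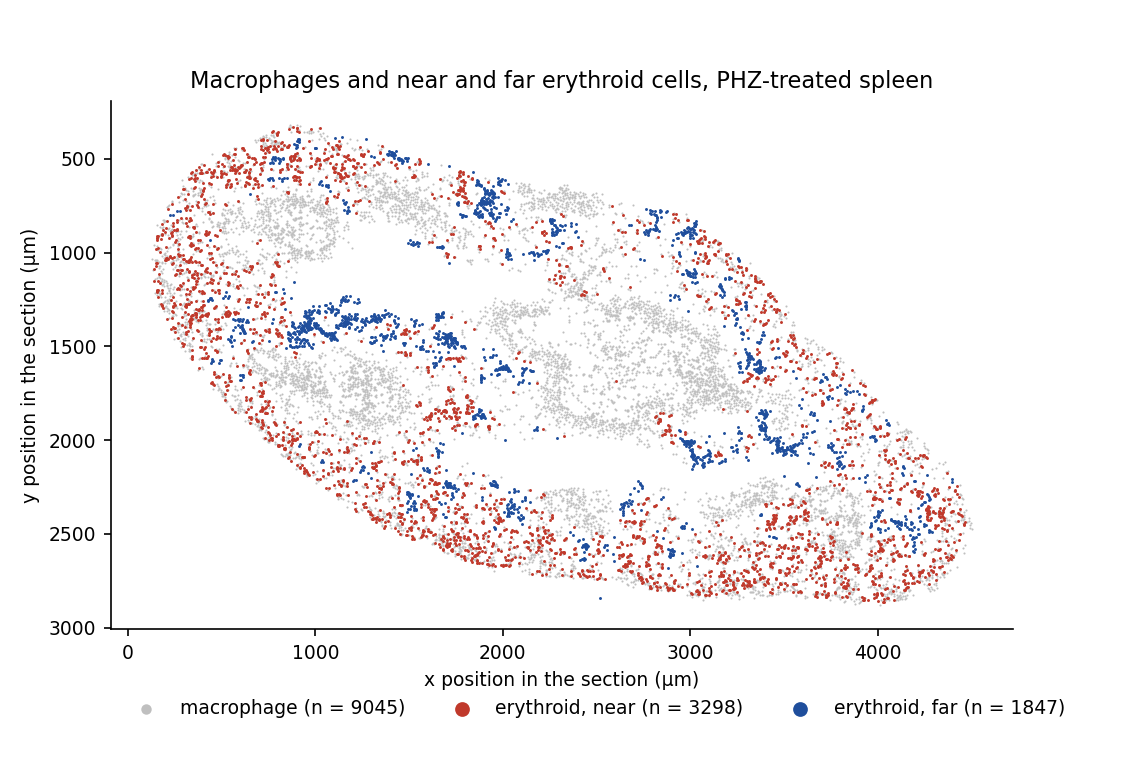
Positions in µm of the 9045 macrophages (gray), 3298 near erythroid cells (red) and 1847 far erythroid cells (blue) in the PHZ-treated spleen section. Far cells lie in patches, many in the interior of the section, whereas near cells are spread widely along its margin.

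Far cells were gathered in patches. Cut into squares of 200 µm, the section had far cells in 121 squares and near cells in 173, and the 5 fullest squares held 21.4% of all far cells. That share was not taken for near cells, so the groups were not compared in clumping. The surroundings of near and far cells differed. Near cells had a median of 79 cells within 40 µm (interval 79 to 80), of which a median of 67.1% had erythroid markers. Far cells had a median of 68 cells (67 to 69), of which 61.0% had erythroid markers. The median distance to the nearest macrophage, fixed by the rule, was 11.6 µm for near and 48.9 µm for far cells.

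The same rule in the untreated spleen found 12060 macrophages among 108338 cells but only 1439 cells with the erythroid markers. Of these, 41 had no C1q count, 28 of them near, 12 between the limits and 1 far. No near and far comparison could be made there, and every value that follows is from the PHZ-treated spleen.

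Cells near macrophages had smaller outlines than far cells, while their nuclei had nearly the same size. The median cell area was 46.6 µm² near (interval 45.7 to 47.3, middle 50% of cells 35.4 to 62.1) and 60.6 µm² far (58.5 to 62.3, middle 50% of cells 44.3 to 89.3), so that far outlines were 1.30 times as large. The upper tail differed most, with a 95th percentile of 102.1 µm² near and 211.6 µm² far. The median nucleus area was 25.1 µm² near (24.8 to 25.5) and 25.1 µm² far (24.7 to 25.6). The nucleus therefore filled a median of 56.4% of the outline near and 44.1% far. T cells of the same section, described below, also had smaller outlines near macrophages. Their medians were 29.8 µm² in 742 near cells and 33.7 µm² in only 63 far cells, with nuclei of 20.4 and 20.6 µm².

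**Figure D2:**
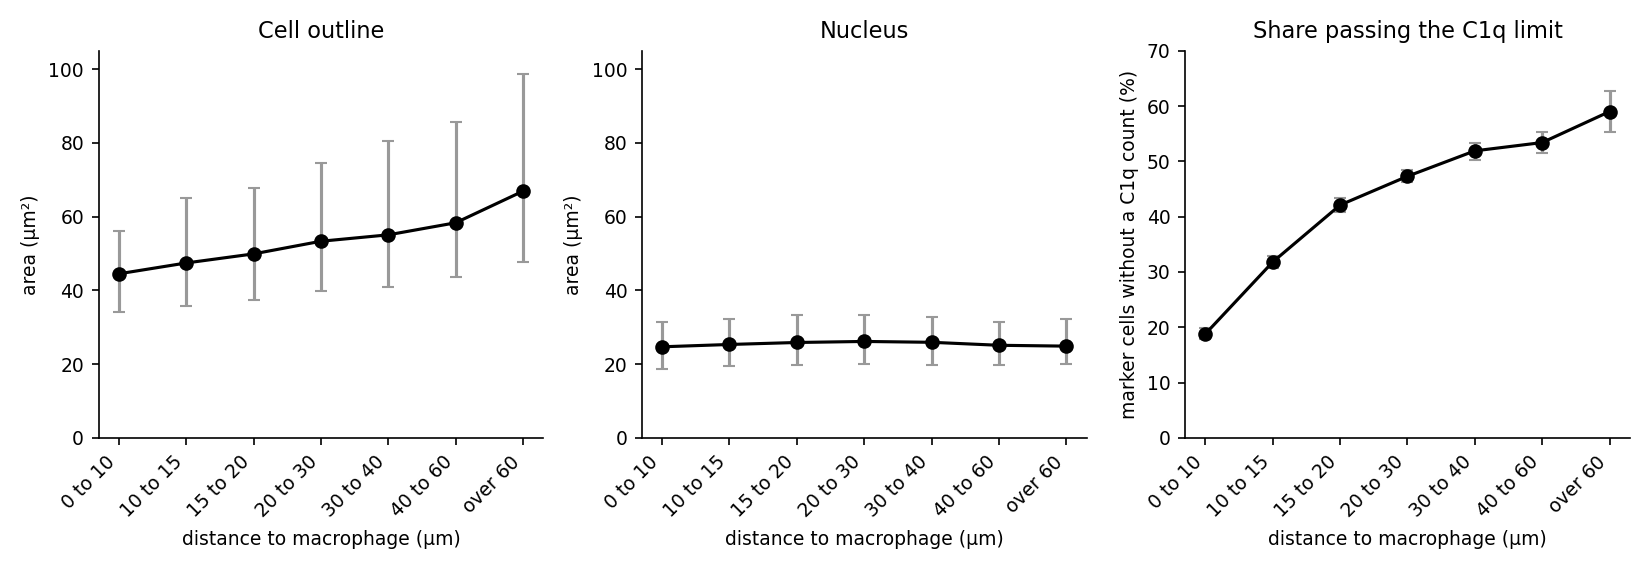
Median cell area (left) and nucleus area (middle) in µm², with bars for the middle 50% of cells, and the percentage of erythroid marker cells without a C1q count (right, exact 95% interval), in 7 bands of distance in µm to the nearest macrophage. Median cell area is higher in each successive band, from 44.5 to 66.9 µm², while the median nucleus area stays between 24.7 and 26.2 µm².

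Cell area followed distance through the bands that the near and far groups left out. The median was 44.5 µm² within 10 µm, 47.4 at 10 to 15 µm, 49.9 at 15 to 20 µm, 53.3 at 20 to 30 µm, 55.1 at 30 to 40 µm, 58.3 at 40 to 60 µm and 66.9 µm² beyond 60 µm. Nucleus area showed no such order, with medians between 24.7 and 26.2 µm² and the highest at 20 to 30 µm. At the distance limits themselves the steps were small. Cells at 14 to 15 µm had a median cell area of 47.5 µm² and cells at 15 to 16 µm 48.1 µm². Cells at 38 to 40 µm had 56.6 µm² and cells at 40 to 42 µm 55.0 µm². At the C1q limit the step was larger. Over all distances, erythroid cells without a C1q count had a median cell area of 51.7 µm² and marker cells with 1 count 58.7 µm². Their median nucleus areas were 25.65 and 27.23 µm².

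The section was divided into 4 fields at the median position of the members, and near cells had the smaller median outline in each. The medians near and far were 47.1 and 60.01 µm² in field 1, 52.8 and 63.1 in field 2, 43.4 and 54.7 in field 3 and 46.7 and 61.5 µm² in field 4. Within the 34 squares of 200 µm that held at least 10 cells of each group, the median was smaller near in 27 and larger in 7, with a weighted mean difference of -9.275 µm² against -14 µm² over the whole section. Allowing up to 9 C1q counts in the erythroid cells gave a difference of -9.12 µm². Cell outlines in these files were grown outward from the nucleus, local cell density moved with distance as given above, and C1q selection did too. Of 2 alternatives on local density, both chosen after seeing the data, pooling over strata of the number of cells within 40 µm gave an area difference of -13.3 µm², and leaving out members with fewer than 60 such cells gave -9.35 µm². The part of outline growth was not tested.

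Near cells held more transcripts in their smaller outlines. Near cells had a median of 132.5 transcripts (130 to 135) and far cells 111 (109 to 114). In the 4 fields the medians near and far were 139 and 106, 125 and 127, 129 and 119, and 132 and 108.5, so field 2 did not share the direction. Per 100 µm² of outline the medians were 307.2 and 190.8. The sum of Slc4a1 and Hemgn, on which both groups were selected, had a median of 15 in each and is given only as a description. Gene levels below are given as CPM, that is, scaled to a common total of 1000000 counts over the 472 genes that the rule did not use. The summed counts of these genes came to 410709 counts near and 193948 far. Ratios are CPM near over CPM far.

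Of 174 genes with at least 100 counts over both groups, 19 were higher near macrophages by 1.5-fold or more, which is 10.9% of the genes compared. Another 9 genes, or 5.17%, were lower by 1.5-fold or more, 146 passed neither limit, and 298 had too few counts. Counted per cell instead of as CPM, 46 genes were higher and 5 lower, and the median log2 ratio over the same genes was 0.33 in place of 0.08. Most of the 28 genes past the limit were scarce in erythroid cells. Among the 64 genes with at least 1000 counts, 4 were higher (Tagln, Des, Col1a2 and Cenpf) and none was lower. The counting interval of the ratio lay above 1 for 62 of the 174 genes and below 1 for 37.

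Among genes that erythroblasts express, near cells had higher CPM of, among others, Cenpf, Ube2c, Isg20, Diaph1, Epor, Cd36 and Cd44. Far cells had higher CPM of, among others, Kit, Car2, Hbb-bt, Fech and Ctse. Gata1, Klf1, Stmn1 and Hk1 had ratios between 0.99 and 1.02. None of the 24 erythroid genes compared passed 1.5-fold, and their ratios ran from 0.74 to 1.45. Of the 3 cell cycle genes, Cenpf passed it. Within squares of 200 µm that held both groups, Ube2c and Cd36 turned to ratios just below 1, at 0.91 and 0.99, and Isg20 came to 1.07. There Ctse came to 0.98, Fech to 0.95, Hbb-bt to 0.93, Car2 to 0.86 and Kit to 0.66.

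Cenpf, which encodes a kinetochore protein made before mitosis, had 3394 counts near and 1052 far, or 8264 and 5424 CPM, a ratio of 1.52 (1.42 to 1.63). Ube2c, the ubiquitin-conjugating enzyme of the anaphase-promoting complex, had 19670 and 15920 CPM, a ratio of 1.24 (1.19 to 1.29), but 0.91 within squares and 0.99 in field 2. Stmn1, which encodes the microtubule regulator stathmin, had 27170 and 27010 CPM, a ratio of 1.01 (0.97 to 1.04). All 3 cell cycle genes had ratios above 1 over the section, as did 103 of all 174 genes, and 1 of them was called, against 10.9% of all genes. The counting interval of Stmn1 included 1.

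Cenpf was graded with distance. Its level was 8799 CPM within 10 µm, 8012 at 10 to 15 µm, 8197 at 15 to 20 µm, 7095 at 20 to 30 µm, 6246 at 30 to 40 µm, 5830 at 40 to 60 µm and 3732 CPM beyond 60 µm. The ratio differed between parts of the section, with 1.70, 0.96, 1.61 and 1.55 in fields 1 to 4. Within squares of 200 µm that held both groups it was 1.09, and that of the whole cell cycle list was 1.00, against 1.14 (1.11 to 1.17) over the section. These squares covered 852 near and 827 far cells. Over the nucleus alone, where 50.96% of the section's transcripts lay, the Cenpf ratio was 1.36.

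Of the regulators and receptors, Epor, which encodes the erythropoietin receptor, had 17440 CPM near and 14070 far, a ratio of 1.24 (1.19 to 1.30), and 1.14 over the nucleus. Its level was between 17290 and 17760 CPM in the 3 bands up to 20 µm and 12420 CPM beyond 60 µm. It was above 1 in each field, from 1.06 to 1.27, and 1.13 within squares. Kit, the stem cell factor receptor of early progenitors, ran the other way with 1232 CPM near and 1655 far, a ratio of 0.74 (0.65 to 0.86), although it was scarce with 15.3 counts per 100 near cells and 17.4 per 100 far cells. Its ratio was 0.69, 1.24, 0.84 and 0.54 in fields 1 to 4 and 0.66 within squares. The transcription factors Gata1 and Klf1 had ratios of 1.02 (0.98 to 1.07) and 0.99 (0.95 to 1.03), so both were close to equal in the 2 groups.

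**Figure D3:**
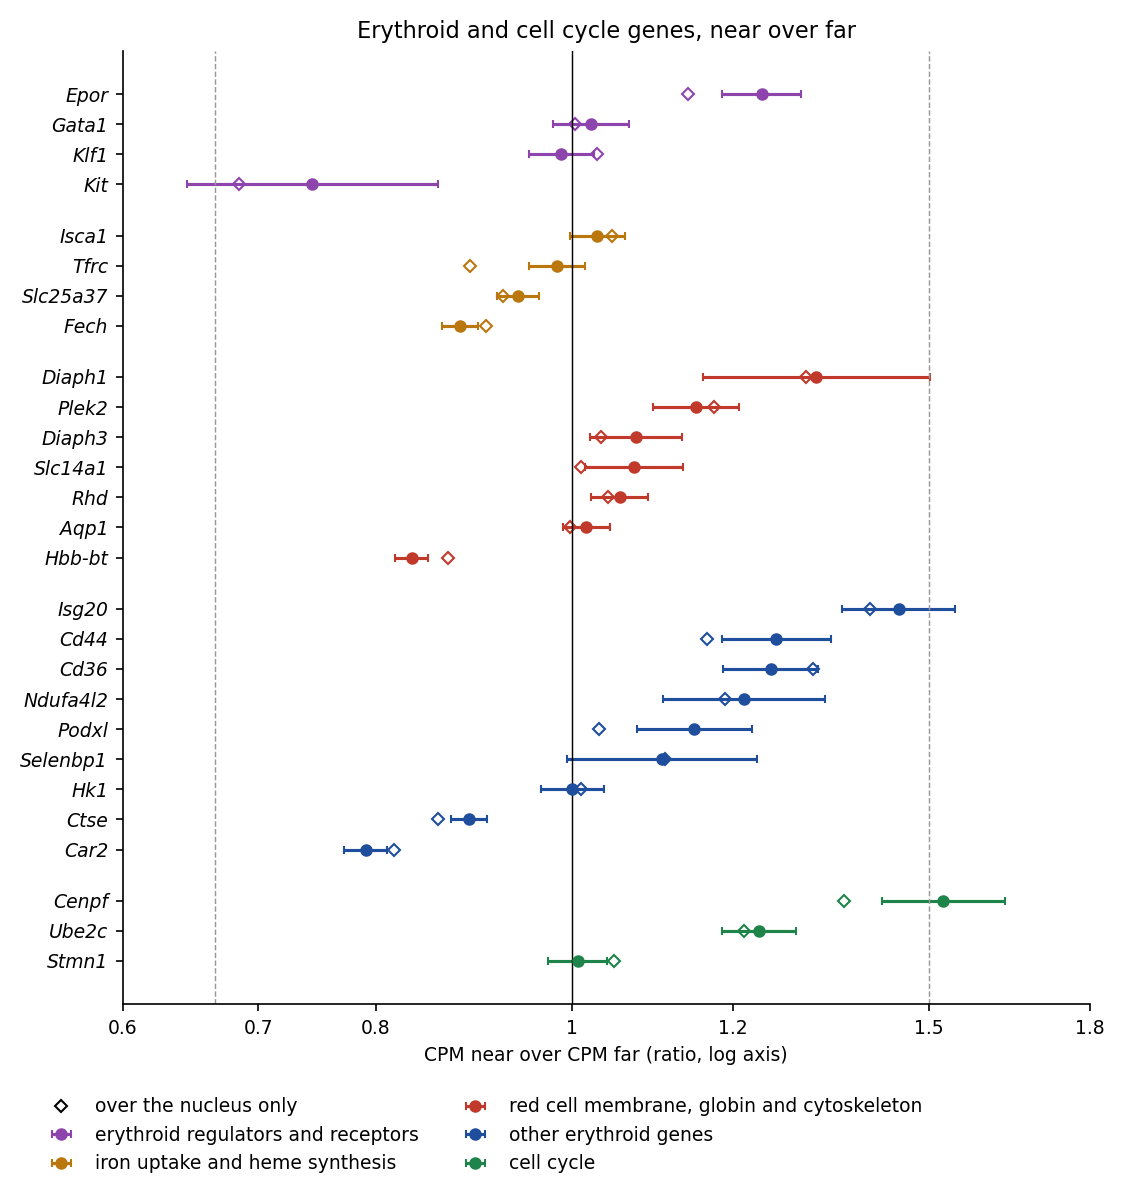
Ratio of CPM in near over far cells (log axis) for the 27 listed erythroid and cell cycle genes with at least 100 counts, with exact 95% counting intervals over the whole outline (filled) and the ratio over the nucleus alone (open diamonds). Solid line, 1; dashed lines, the 1.5-fold limits. Cenpf alone lies past a limit, and the intervals of Kit, Slc25a37, Fech, Hbb-bt, Ctse and Car2 lie below 1 as CPM, of which Slc25a37, Fech and Ctse lie above 1 when counted per cell.

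Fech and Slc25a37, of heme synthesis and iron uptake, had slightly lower CPM near macrophages, but not fewer counts per cell. Fech, which encodes ferrochelatase, the last enzyme of the pathway, had 64200 CPM near and 72920 far, a ratio of 0.88 (0.86 to 0.90). It was 0.95 within squares and 1.00 in field 2. Slc25a37, which encodes the mitochondrial iron importer mitoferrin, had a ratio of 0.94 (0.92 to 0.96). The transferrin receptor gene Tfrc, with a ratio of 0.98 (0.95 to 1.02), and Isca1, of iron-sulfur cluster assembly, with 1.03 (1.00 to 1.06), had intervals that included 1. These 4 genes summed had a ratio of 0.94 (0.93 to 0.95), and 0.97 within squares.

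Hbb-bt, an adult beta globin gene, was the most abundant in the list of globin, membrane and cytoskeleton genes, which leaves out the rule gene Slc4a1. It had 73840 CPM near and 88620 far, a ratio of 0.83 (0.82 to 0.85). It was below 1 in all 4 fields, from 0.78 to 0.95, and 0.93 within squares. The remaining 6 genes of its list had ratios above 1, as did 103 of all 174 genes. Diaph1, which encodes an actin-nucleating formin, had 1.32 (1.16 to 1.502), Plek2, which encodes pleckstrin-2, had 1.15 (1.096 to 1.21), and Aqp1, Rhd, Slc14a1 and Diaph3 lay between 1.02 and 1.08. Within squares, Diaph3, Rhd and Plek2 turned to ratios just below 1, at 0.93, 0.99 and 0.99, and the interval of Aqp1 over the section included 1. Diaph1 came to 1.04 within squares and was 0.78 in field 2.

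The other erythroid genes were also split. Isg20, an exonuclease gene, had 9374 CPM near and 6471 far, a ratio of 1.45 (1.36 to 1.55). Cd44, a surface receptor that erythroblasts lose as they mature, had 1.26 (1.19 to 1.34), Cd36, a scavenger receptor, 1.25 (1.19 to 1.32) and Ndufa4l2, a mitochondrial protein gene, 1.22 (1.11 to 1.33), but 0.99 within squares and 0.94 in field 2. Podxl, which encodes the sialomucin podocalyxin, had 1.15 (1.08 to 1.23) and Selenbp1, a selenium-binding protein gene, 1.11 (0.99 to 1.23). In contrast, Car2, which encodes carbonic anhydrase 2 of red cells, had 42540 CPM near and 53790 far, a ratio of 0.79 (0.77 to 0.81). Car2 was below 1 in all 4 fields, from 0.75 to 0.91, and 0.86 within squares. Ctse, which encodes cathepsin E, had 0.89 (0.87 to 0.91), but 0.98 within squares and 1.03 in field 2. Hk1, the hexokinase gene of red cells, had 1.00 (0.97 to 1.04). The tenth gene of the list, Asb9, had too few counts.

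**Figure D4:**
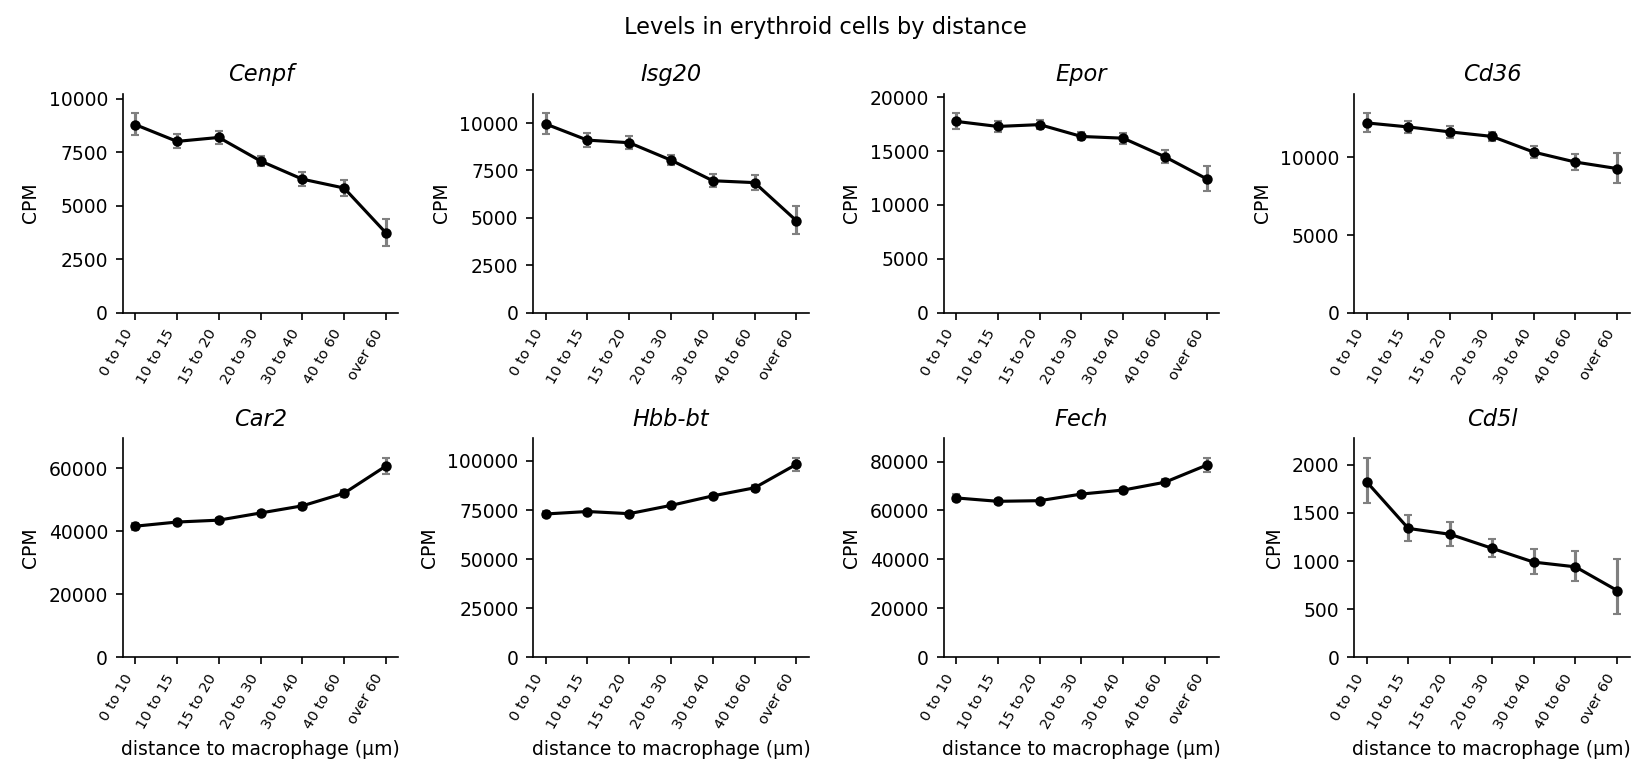
CPM of 8 genes in erythroid cells without C1q counts, by band of distance in µm to the nearest macrophage, with exact 95% counting intervals. Cenpf, Isg20, Epor, Cd36 and the macrophage gene Cd5l are lower at larger distances, and Car2, Hbb-bt and Fech are higher.

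The bands between the groups showed gradual steps for these genes. Car2 was 41640 CPM within 10 µm, 45840 at 20 to 30 µm, 52120 at 40 to 60 µm and 60760 CPM beyond 60 µm. Hbb-bt went from 72980 CPM within 10 µm to 77360 at 20 to 30 µm and 98270 beyond 60 µm, and Isg20 from 9955 to 8044 and 4852 CPM over the same bands. Most of the difference in these genes lay beyond 20 µm. The genes of the rule are given only as a description. Slc4a1 was at 83220 CPM within 10 µm and 109500 beyond 60 µm, and Hemgn at 49020 and 57850 CPM. Every erythroid cell had to hold a minimum count of these genes, whereas median transcripts per cell were 130 within 10 µm and 96 beyond 60 µm. Their CPM therefore cannot be read as a gradient apart from the selection. Per cell, their summed count had a median of 15 in near and in far cells. Per cell, Hbb-bt had 919.5 counts per 100 near cells and 930.6 per 100 far cells, Car2 529.7 and 564.9, and Fech 799.5 and 765.7, so per cell the order of Fech was turned and that of Hbb-bt barely held.

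Genes listed as macrophage markers were found in the erythroid outlines of both groups although cells with any C1q count had been left out. Of 22 macrophage markers, 16 had enough counts. Of these, 12 had a ratio above 1, against 103 of all 174 genes. The 1.5-fold limit was passed by 2 of them, against 10.9% of all genes compared. The median log2 ratio of the markers was 0.34 and that of all genes 0.08. Summed, they had 510.1 counts per 100 near cells, 369.8 per 100 far cells and 3993 per 100 macrophages, and the ratio of their CPM was 1.16 (1.13 to 1.196), 1.21 over the nucleus and 1.19 within squares. Of these counts per 100 cells, Slc40a1 gave 149.4 near, 109.5 far and 751.7 in macrophages. Dnase2a gave 79.5, 45.3 and 86.2 in the same order. Near T cells, described below, had 37.6 counts of Slc40a1 and 29.9 of Dnase2a per 100 cells. Which cells made the transcripts of these 2 genes was not tested.

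Cd5l, a secreted macrophage protein, had 614 counts near and 173 far, a ratio of 1.68 (1.41 to 2.00). It was above 1 in every field, from 1.25 to 2.43, and 1.71 within squares. Vcam1, the adhesion molecule that binds erythroblasts to island macrophages, had 491 and 150 counts, a ratio of 1.55 (1.29 to 1.87), but 1.23 over the nucleus and 1.09 within squares. Of the markers that did not pass the limit, Dnase2a, the lysosomal nuclease that digests expelled nuclei, had 2621 and 837 counts and a ratio of 1.48 (1.37 to 1.60). With 79.5 counts per 100 near cells and 86.2 per 100 macrophages, Dnase2a was nearly as frequent in the near erythroid outlines as in macrophages. Trf, which encodes transferrin, had a ratio of 1.46 (1.16 to 1.87), Mrc1, the mannose receptor, 1.43 (1.16 to 1.77), Ms4a7 1.42 (0.96 to 2.14), and Adgre1, which encodes F4/80, 1.35 (1.02 to 1.82). Within squares Trf turned to 0.95, with 63 counts near and 51 far, and Ms4a7 to 0.64, with 21 and 23. Mrc1 had 1.46 there and Adgre1 1.21.

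Spic, a transcription factor of red pulp macrophages, had a ratio of 1.28 (1.05 to 1.57), the scavenger receptor gene Marco 1.25 (1.04 to 1.52), and Slc40a1, which encodes the iron exporter ferroportin, 1.15 (1.09 to 1.21). The intervals of Cd68, Selenop, Maf, Mpeg1, Aif1 and Nr1h3 included 1, with ratios from 0.83 to 1.03. The size of the ratio therefore differed between macrophage genes, and no marker compared had an interval below 1.

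T cells of the same section, which should lack most macrophage and all stromal markers, were measured by the same distances. Cells with at least 2 counts of Cd3d and Cd3e and none of the C1q or erythroid marker genes numbered 1700, 742 of them near and 63 far. The macrophage markers had 431.8 counts per 100 near and 401.6 per 100 far T cells, a ratio of CPM of 1.04 (0.92 to 1.19). The stromal markers had 328.4 and 196.8 counts per 100 T cells, a ratio of 1.61 (1.35 to 1.95). Outlines of another cell type thus also held macrophage and stromal transcripts. As CPM, the stromal markers were at 50110 near and 31040 far in T cells, above the 15310 and 10970 CPM in erythroid cells. Maf, with 95.6 counts per 100 near T cells, is also a gene of T cells. The part of neighboring cells in the ratios of the erythroid cells was not tested.

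Several of the largest ratios were those of genes of other cell types. Ctsg, Mpo and Elane, the granule protease and peroxidase genes of granulocyte progenitors, were each higher near macrophages. Ctsg had 141 counts near and 12 far, a ratio of 5.55 (3.08 to 10.99), Mpo 390 and 92 counts, a ratio of 2.00 (1.59 to 2.54), and Elane 335 and 87 counts, a ratio of 1.82 (1.43 to 2.33). All 3 of the list were called, against 10.9% of all genes. Their summed level was 3148 CPM within 10 µm, between 1619 and 1703 CPM from 10 to 40 µm, and 240 CPM beyond 60 µm. In field 3, which held only 131 far cells, Mpo had a ratio of 0.51 and Elane 0.36, while in fields 1 and 2 both lay between 3.62 and 3.94. Within squares the summed ratio was 1.30, compared with 2.14 (1.83 to 2.52) over the section.

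Stromal genes were the second group. Of 10 markers, 7 had enough counts, all with ratios above 1, against 103 of all 174 genes, and 3 passed the limit, against 10.9% of all genes. Tagln, an actin-binding protein gene of smooth muscle, had 1124 counts near and 306 far, a ratio of 1.74 (1.53 to 1.98), the collagen gene Col1a2 1.54 (1.37 to 1.74), and the smooth muscle myosin gene Myh11 1.79 (1.18 to 2.80). Des, which encodes desmin and is not in the list, had 1.56 (1.37 to 1.78). The summed ratio was 1.40 (1.33 to 1.47), 1.45 over the nucleus and 1.32 within squares. The bands did not follow distance in order. The list was at 11990 CPM within 10 µm, between 14810 and 16900 CPM from 10 to 40 µm, 11950 CPM at 40 to 60 µm and 6878 CPM beyond 60 µm, so the cells closest to macrophages had about the level of those at 40 to 60 µm. The T cell values above show the same list higher near macrophages in cells of another type.

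**Figure D5:**
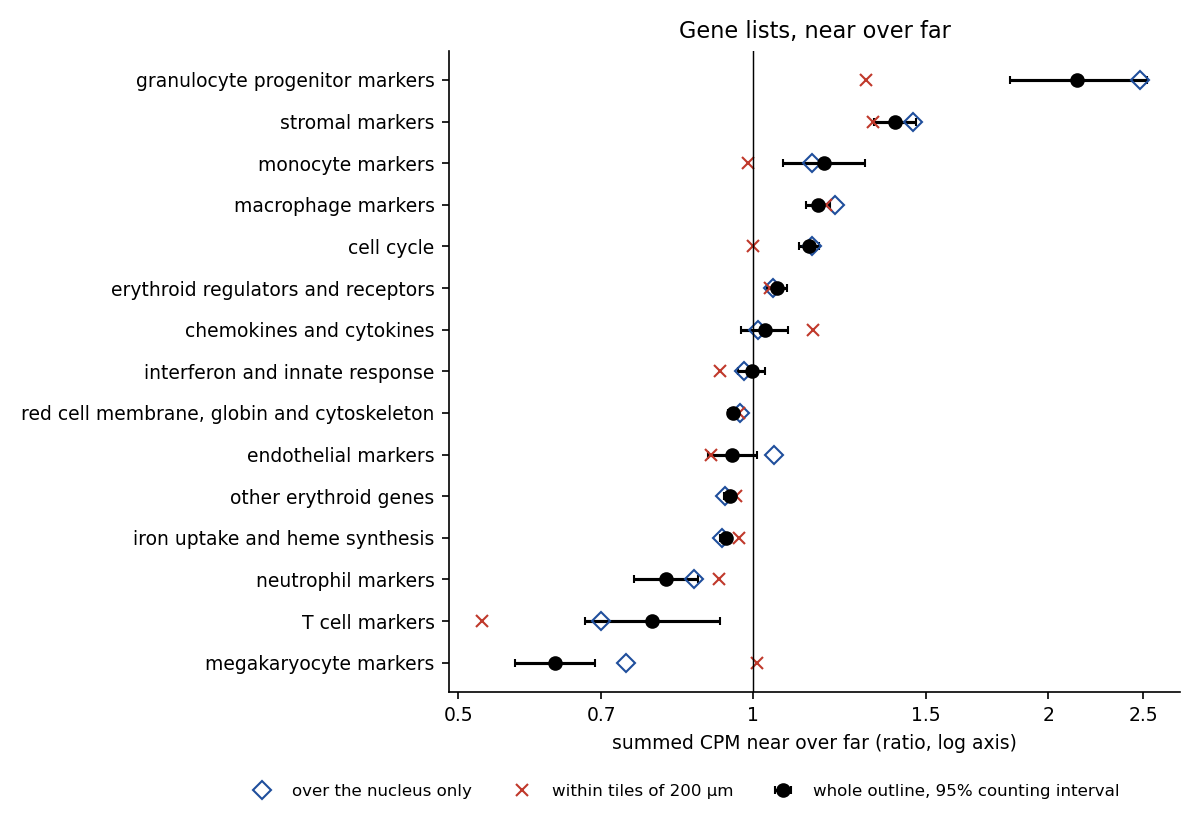
Ratio of summed CPM in near over far cells (log axis) for the 15 gene lists with at least 1 gene compared, over the whole outline with exact 95% counting intervals (black), over the nucleus alone (blue) and within squares of 200 µm that held both groups (red). Granulocyte progenitor and stromal markers lie furthest above 1, and megakaryocyte markers lie at 0.63 over the section but at 1.01 within squares.

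The other genes higher near macrophages were Sfrp1, Hp, C3, Emb, Igfbp3, Il4ra, Cxcl13, Clec4a3 and Coch, each with fewer than 500 counts and with ratios from 1.63 to 2.24. Hp, which encodes haptoglobin, the plasma protein that binds free hemoglobin, had 309 counts near and 69 far, a ratio of 2.12 (1.62 to 2.79) and 2.04 within squares, but 0.77 in field 3. C3, the central complement component, had 331 and 76 counts, a ratio of 2.06 (1.60 to 2.68) and 2.05 within squares, and was above 1 in all 4 fields. Sfrp1, an inhibitor of Wnt signaling, had 2.24 (1.59 to 3.24) over the section and 1.00 within squares, there from 24 and 19 counts. Emb had 2.04 over the section and 1.16 within squares, and Clec4a3 1.67 and 1.09, with 0.94 in field 4. Igfbp3 and Myh11 turned to ratios below 1 within squares, at 0.79 and 0.74, from few counts. Igfbp3 had 48 counts near and 40 far there, and Myh11 15 and 12.

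Just under the limit, among genes with at least 1000 counts, were Gfap, an intermediate filament gene, with a ratio of 1.498 (1.32 to 1.71), the chemokine gene Ccl9 with 1.496 (1.33 to 1.69), the stress-response gene Nupr1 with 1.49 (1.30 to 1.70) and Rac2, the GTPase of blood cells, with 1.45 (1.34 to 1.56). Ccl9 was 3536 CPM within 10 µm and between 1733 and 2364 CPM in every band beyond. Its ratio was 1.99 over the nucleus. Within squares the ratios of Gfap, Ccl9, Nupr1 and Rac2 were 1.29, 1.44, 1.30 and 1.18, and Rac2 was 0.95 in field 3. Under the alternatives given below, the lowest ratios of Gfap and Nupr1 were 0.996 and 0.945.

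The 4 lowest ratios were those of Ppbp, Cxcl2, Il1b and Cd8a. Ppbp, a platelet chemokine, had 446 counts near and 426 far, a ratio of 0.49 (0.43 to 0.57) over the section and 0.79 within squares. Il1b, which encodes interleukin-1 beta, had 278 and 256 counts, a ratio of 0.51 (0.43 to 0.61), and the neutrophil-attracting chemokine gene Cxcl2 had 166 and 158 counts, a ratio of 0.50 (0.40 to 0.62). Il1b was below 1 in all 4 fields, from 0.49 to 0.66, and 0.64 within squares, whereas Cxcl2 was 1.02 within squares. Cd8a, the T cell coreceptor, had 63 and 56 counts, a ratio of 0.53 (0.36 to 0.78), but 1.26 in field 3, and within squares it had only 3 counts near and 19 far.

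The other genes past the lower limit were Asprv1, Slamf1, Cav1, Cstdc4 and Ackr3, each with fewer than 130 counts near. Ackr3 had a ratio of 0.65 (0.48 to 0.89) over the whole outline but 1.43 (0.73 to 2.99) over the nucleus, from 40 and 12 counts. Its ratio within squares was 1.83, from 32 and 20 counts. The megakaryocyte markers had a summed ratio of 0.63 (0.57 to 0.69) over the section, with 4 of 4 below 1 and 1 past the limit, but 1.01 within squares. Of all 174 genes, 71 were below 1 and 5.17% were past the lower limit. The neutrophil markers had 9 of 9 below 1 and none past the limit, with a summed ratio of 0.81 (0.75 to 0.88), and 0.92 within squares.

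Among genes with at least 1000 counts, the lowest ratios besides the erythroid genes given above were those of Ctla2a, a protease inhibitor gene, with 0.69 (0.63 to 0.76), Alox5ap, of leukotriene synthesis, with 0.71 (0.63 to 0.80), Laptm5, a lysosomal gene of blood cells, with 0.86 (0.78 to 0.94), Igfbp7 with 0.88 (0.82 to 0.95) and Ly6a, which encodes Sca-1, with 0.93 (0.85 to 1.01). Laptm5, Igfbp7 and Ly6a had more counts per cell near macrophages than far. Their CPM ratios also turned above 1, that of Laptm5 within squares, at 1.05, and those of Igfbp7 and Ly6a over the nucleus, at 1.09 and 1.14. Alox5ap came to 0.91 within squares and was below 1 in all 4 fields, from 0.62 to 0.88. Ctla2a had ratios of 0.70, 0.53, 1.04 and 1.02 in fields 1 to 4 and 0.84 within squares. It was lowest next to macrophages, at 1871 CPM within 10 µm, and lay between 3046 and 3995 CPM in every band beyond 10 µm.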

How the data were processed

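The authors deposited, for each section, raw counts per gene and segmented cell, cell positions and areas, and each decoded transcript with its quality score. Per the file headers, the software was Xenium Onboard Analysis 1.7.1.0, whereas the methods name Space Ranger; cells were nuclei with expanded outlines. The PHZ-treated section held 11430388 transcripts in cells (median 104 per cell), and the untreated one 10351683 (median 84). The most frequent of 20 negative control probes had 76 counts in the PHZ-treated section. Transcripts with a quality score of at least 20 rebuilt the counts exactly. The spleens shared 1 cell name.

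Counts were summed over near and over far cells and divided by the sum over the 472 genes outside the rule. Genes with at least 100 counts were called at 1.5-fold. Count ratios have exact conditional binomial (Clopper-Pearson) intervals, and medians have order-statistic intervals. Ratios within squares are Mantel-Haenszel pooled. Named genes were the 10 highest and 10 lowest ratios among genes with at least 1000 counts, and all members with at least 100 counts of the erythroid, cell cycle and macrophage lists. Other genes past 1.5-fold were named after their values were seen. The members, limits and the 16 lists were chosen with earlier results of these data known. Results for 2 listed genes are not reported here, and list sums leave them out. Doublets were not called, and transcripts of neighboring cells were not removed. The ratio, interval and call were tested on simulated counts. Python 3.11.15, numpy 2.4.6, scipy 1.17.1 and pandas 2.3.3 were used.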

Additional observations from a re-analysis of the deposited data

How the results depend on the processing

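Alternatives numbered 19, of which the strata of local density and the removal of members with fewer than 60 cells within 40 µm were chosen after seeing the data. The cell area difference near minus far was negative in each of the 13 alternatives run for areas, and moved to -10.9 µm² with far set at over 30 µm, -20.3 at over 60 µm, -23.1 with macrophages at 5 C1q counts, -6.37 at 20 C1q counts, -9.12 with up to 9 C1q counts allowed, -9.28 within squares and -9.35 µm² without members in sparse surroundings. The nucleus area difference was 0.07 µm² and moved to -0.95 with macrophages at 20 C1q counts, 1.81 with up to 9 C1q counts allowed and -1.06 µm² within squares.

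The 19 genes higher near macrophages became 46 per cell, 4 at a minimum of 1000 counts, 67 at 1 count in each group, 6 at 2.0-fold, 8 with far over 30 µm, 46 with far over 60 µm, 67 and 30 with macrophages at 5 and 20 C1q counts, 44 with up to 9 C1q counts and 7 within squares, of which 4 were among the 19. The 9 lower genes became 5 per cell, 0 at 1000 counts, 84 at 1 count in each group, 2 at 2.0-fold, 17 with near within 10 µm, 18 with far over 60 µm, 15 and 19 with macrophages at 5 and 20 C1q counts and 4 within squares, of which 1 was among the 9. Genes compared numbered 174 in the main setting, 64 at 1000 counts, 439 at 1 count in each group and 112 within squares. With macrophages at 5 and 20 C1q counts they numbered 202 and 206, and with up to 9 C1q counts 254. Within squares Ctsg, Hp, Cxcl13, Sfrp1, Emb, Igfbp3, Myh11 and Clec4a3 of the higher genes had fewer than 100 counts and could not be called. The same held for Ackr3, Cstdc4, Cav1, Slamf1, Asprv1 and Cd8a of the lower genes. Over the nucleus, where 150 genes had at least 100 counts, 11 of the 19 and 4 of the 9 were called again. Ctsg and Myh11 of the higher genes had too few counts over the nucleus to be called. Ackr3, Cav1, Slamf1, Asprv1 and Cd8a of the lower genes also had too few.

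Of the 28 genes past 1.5-fold, 21 kept their direction under every alternative and 1, Ctsg, was past the limit in each that gave it a value. The log2 ratio reversed for Ackr3 over the nucleus (0.51), within squares (0.87) and without sparse surroundings (0.16), for Slamf1 with macrophages at 5 C1q counts (0.53), erythroid cells at 5 marker counts (0.0057) and within squares (0.30), for Myh11 at 5 C1q counts (-0.21) and within squares (-0.43), for Ppbp at 20 C1q counts (0.10), and within squares for Igfbp3 (-0.33), Cstdc4 (0.41) and Cxcl2 (0.032). The causes were not tested. No paired analysis was possible because each condition had 1 section. Far cells numbered 302 with macrophages at 5 C1q counts and 413 beyond 60 µm.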

Other observations

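The 7 interferon and innate response genes had a summed ratio of 1.00 (0.96 to 1.03), and Rsad2, the interferon-induced antiviral enzyme gene, made up most of their counts, with 10054 near and 4724 far and a ratio of 1.01 (0.97 to 1.04). Gbp5 and Epsti1 had ratios of 0.77 (0.63 to 0.94) and 0.77 (0.61 to 0.97). The endothelial markers had a summed ratio of 0.95 (0.90 to 1.01), in which Plvap, of fenestrated endothelium, had 0.67 (0.56 to 0.80) and Gpihbp1, of capillaries, had 1.49 (1.12 to 2.03). Of 18 chemokine and cytokine genes, 13 had enough counts, 1 was higher and 2 were lower by 1.5-fold, against 10.9% and 5.17% of all genes, and the summed ratio was 1.03 (0.97 to 1.08). The 6 monocyte markers had a summed ratio of 1.18 (1.07 to 1.30) and 0.99 within squares. The T cell markers had 0.79 (0.67 to 0.93) over the section and 0.53 within squares, where they had 57 counts near and 108 far. The 3 NK cell markers each had too few counts to be compared, and together they had 120 counts near and 33 far, a ratio of 1.72 (1.16 to 2.61).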
